A study of Canis lupus familiaris with 27 samples.

Results

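The cadherins, protocadherins, claudins and desmosomal cadherins are the membrane proteins through which neighbouring epithelial cells hold each other and seal the gap between them. Their genes were taken from the probe annotation by symbol, as all symbols that begin with CDH, PCDH, CLDN, DSG or DSC followed by a digit (PCDH also by A, B or G), without the endothelial genes CDH5 and CLDN5. This gave 51 of the 15115 genes with a symbol of their own, namely 20 cadherins, 17 claudins, 8 protocadherins and 6 desmosomal cadherins. Each gene was read from 1 probe set, the one with the highest mean over the tumors.

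The data were expression values of 27 invasive simple mammary carcinomas of dogs on the Affymetrix Canine Genome 2.0 array, 13 with lymph node metastasis (metastatic) and 14 without (non-metastatic), 1 array per tumor. The comparison asks whether the primary tumors of the groups differ in expression. The metastatic tumors were of grade II in 6 and grade III in 7 dogs, measured 0.5 to 5 cm and came from dogs aged 9 to 16 years. The non-metastatic tumors were of grade II in 5 and grade III in 9 dogs, measured 2 to 15 cm and came from dogs aged 9 to 15 years. Tissue was macrodissected for a high share of carcinoma cells, so that RNA of other cells was still present, and in such bulk samples fewer cells of a type and less RNA per cell cannot be told apart. Non-metastatic tumor 12 belonged to a dog with lung metastases at month 8, although its lymph nodes were free of tumor.

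Classical cadherins bind the same cadherin on the neighbouring cell and are tied to actin by catenins at the adherens junction. Claudins form the strands of the tight junction and decide which ions pass between cells. Desmogleins (DSG) and desmocollins (DSC) are the cadherins of the desmosome, which anchors keratin filaments, and protocadherins are a larger branch of weaker adhesion molecules known best from the nervous system.

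All levels below are log2 expression values. Their median over all probe sets and tumors was 3.66. The level of a probe set also depends on its own sequence, so levels are compared between tumors and never between genes. Of the 51 genes, 27 stayed at or under 5 in every tumor, with values between 1.49 and 4.37, and these included CDH6, CDH8 to CDH10, CDH12, CLDN2, CLDN6, CLDN18, DSC1, DSG4 and PCDHB1. In contrast, 24 genes exceeded 5 in at least 1 tumor and 3 did so in all tumors, CDH11, CDH16 and DSG2. Many members varied strongly from tumor to tumor. The SD over the 27 tumors exceeded 1 for 19 of the 51 members, against 16.3% of all genes, and exceeded 2 for 5 members, against 2.06% of all genes, while the median SD was 0.244 for the members and 0.493 for all genes.

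**Figure D1:**
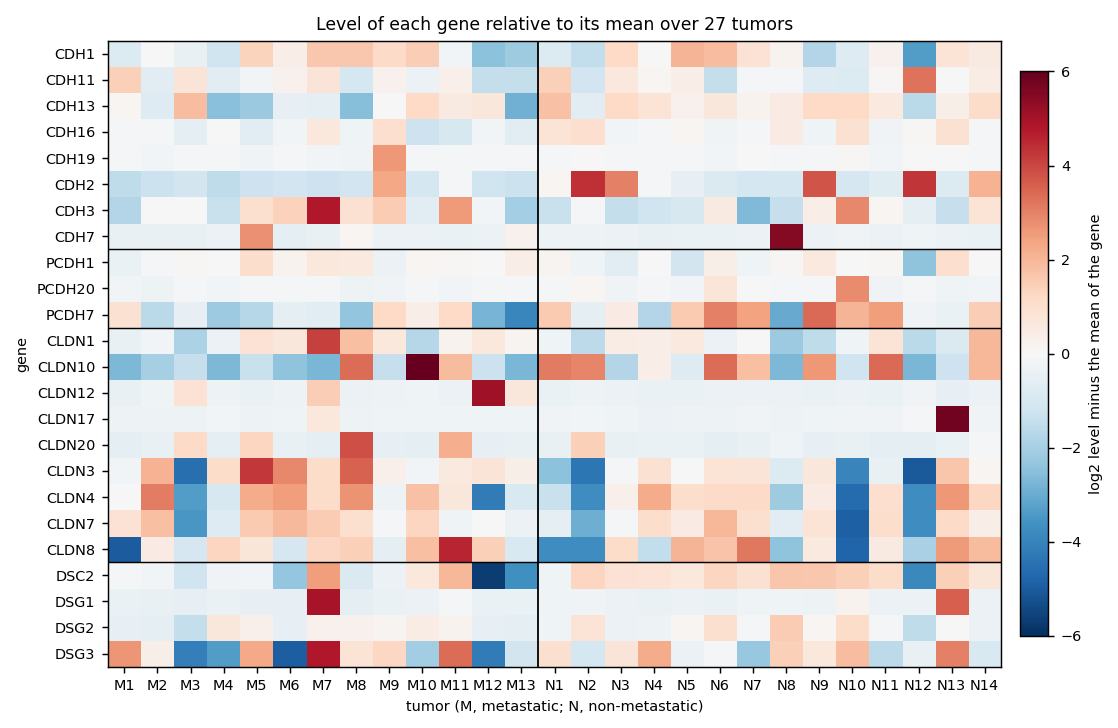
Log2 level of the 24 members that exceeded 5 in at least 1 tumor, each minus its mean over 27 tumors; columns are metastatic (M) and non-metastatic (N) tumors, rows are genes grouped into cadherins, protocadherins, claudins and desmosomal cadherins. CLDN3, CLDN4 and CLDN7 were low together in M3, N2, N10 and N12, and CDH2 was high in N2, N3, N9, N12, N14 and M9.

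Between the lymph node groups, 2 of the 51 members passed the test, PCDH7 and CDH6, and both were lower in metastatic tumors (limma, Benjamini-Hochberg adjusted p under 0.05 over all 42860 probe sets). Among all genes the same test called 19.2%, with 7.9% lower and 11.3% higher (1705 genes higher and 1194 lower, or 1824 and 636 with each array centred on its median). No member was called higher. An unadjusted p under 0.05 was found for 11 members, 10 lower and 1 higher (CLDN3), against 34.4% of all genes. Stricter cut-offs were also applied to the limma results, an adjusted p under 0.001 and a fold change over 1.7. No member passed them, against 0.953% of all genes. The study used the same cut-offs with q-values of a different test and reported a longer gene list. That list held the protocadherin PCDHGC3 as lower in metastatic tumors, a gene that was not analysed here. The median difference, metastatic minus non-metastatic, was -0.03 over the members and -0.002 over all genes, and 34 members had a negative and 17 a positive difference.

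Array brightness and sample naming also differed between the groups. The upper quartile of the array was 7.93 ± 0.04 (SD, n = 13) on the arrays of metastatic tumors and lower, at 7.75 ± 0.15 (SD, n = 14), on the others. Sample names ended in T for 11 of the 13 metastatic and 0 of the 14 non-metastatic tumors, and for those 11 tumors whatever the ending stands for and the lymph node status cannot be told apart. With the upper quartile as a covariate, or with the ending of the name as a block, 0 members were called, against 5.28% and 0.0728% of all genes. Markers of other cell types were also read. None of the measured markers of luminal epithelium (6), squamous epithelium or skin (5), fibroblasts (8), adipocytes (5), T and NK cells (6), macrophages (5), nerve (2) or skeletal muscle (4) was called, at an unadjusted p under 0.05 for 1, 0, 4, 0, 0, 1, 1 and 4 of them, and of 7 endothelial markers 2 were higher and 1 lower in metastatic tumors (limma). Among all genes 19.2% were called and 34.4% had an unadjusted p under 0.05. Median differences of these lists, in the same order, were 0.54, 0.08, 0.84, 0.05, 0.69, 0.46, -1.01 and -0.62, and 0.605 for the endothelial markers. The lack of calls in such short lists does not show equal shares of these cells.

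PCDH7, a protocadherin of the non-clustered group, showed the largest fall. Its level in metastatic tumors ran from 2.45 over a median of 5.75 to 7.58, and in non-metastatic tumors from 3.33 over 7.88 to 9.75. All 13 metastatic tumors were below the median of the non-metastatic tumors, but the ranges overlapped widely, and non-metastatic tumors 8 and 4 were among the low ones at 3.33 and 4.63. The difference was -1.86 (SE 0.66, 95% interval -3.22 to -0.49, limma adjusted p = 0.0474). The call was near the threshold: it held in 9 of 27 analyses that left out 1 tumor each, with adjusted p-values between 0.016 and 0.0774, and was lost without any of the other 18 tumors.

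Beside PCDH7, some genes listed as markers of basal epithelium and myoepithelium were lower in metastatic tumors. The list shares its contractile genes with smooth muscle. Of 8 such markers measured, 4 were called lower (KRT17 by -2.88, MYH11 by -3.88, CNN1 by -2.64 and MYLK by -2.47, limma adjusted p between 0.000834 and 0.0354) and none was called higher. Among all genes 7.9% were called lower and 11.3% higher, and the markers were not tested as a set. TP63, ACTA2, TAGLN and OXTR differed by -0.31, -0.37, -0.68 and -0.45 and were not called. KRT5 and KRT14 were not measured. The mean level of the 8 markers lay between 5.91 and 9.46 in metastatic and between 6.77 and 10.72 in non-metastatic tumors. Metastatic tumor 13 had the lowest value of both PCDH7 and this marker mean, whereas non-metastatic tumor 8 had little PCDH7 at a marker mean of 10.00. With the mean of 5 smooth muscle genes (ACTA2, MYH11, CNN1, TAGLN and MYLK) as a covariate the difference in PCDH7 was -0.21 (SE 0.79, limma adjusted p = 0.867). Because MYH11, CNN1 and MYLK were themselves called lower, this score and the lymph node group are confounded. The part of these markers in the PCDH7 difference was not tested.

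CDH6, or K-cadherin, was the other gene called. The level was between 2.85 and 3.21 (median 3.07) in metastatic and between 3.02 and 3.74 (median 3.22) in non-metastatic tumors, near the lower end of the scale. All 13 metastatic tumors were below the non-metastatic median. The difference was -0.21 (SE 0.06, 95% interval -0.32 to -0.09, limma adjusted p = 0.0143), and it remained called when any 1 tumor was left out. The call was lost with the array upper quartile as a covariate, where the difference was -0.03 (SE 0.05, limma adjusted p = 0.798). It was also lost with the values quantile-normalized again (-0.11, limma adjusted p = 0.068) and with the mean of all its probe sets (-0.03, limma adjusted p = 0.790). The other 3 probe sets of CDH6 differed by -0.11, 0.21 and -0.0004 and none was called. Small negative differences were common among dim genes: of 25 members under 4 in every tumor, 21 had a negative difference, with a median of -0.03, and of the 4543 genes of the array under 4 in every tumor 80.7% did, also with a median of -0.03. The difference of CDH6 was the most negative of these 25 members.

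**Figure D2:**
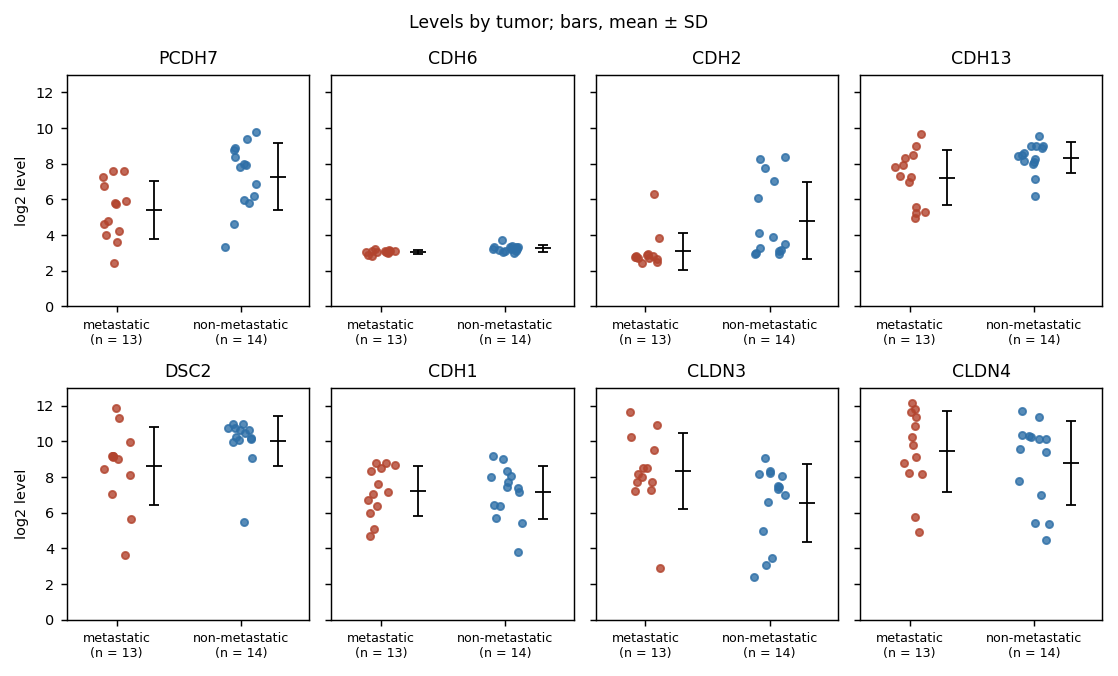
Log2 level (vertical axis) of 8 members in 13 metastatic and 14 non-metastatic tumors; each point is 1 tumor and the bar beside it gives mean ± SD. PCDH7 and CDH6 were the members called lower in metastatic tumors; in every panel the groups overlap.

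Among the classical cadherins, E-cadherin (CDH1), the adherens junction cadherin of epithelium, showed no difference between the groups that passed the test. It ran from 4.72 over 7.14 to 8.80 in metastatic and from 3.81 over 7.41 to 9.20 in non-metastatic tumors. The lowest value was that of non-metastatic tumor 12, followed by metastatic tumors 12 and 13 at 4.72 and 5.06. The difference was 0.06 with a 95% interval of -1.06 to 1.18 (limma adjusted p = 0.942), which leaves room for a change of 1 log2 unit either way. The value depended on the model: it was 1.57 (SE 0.62, limma adjusted p = 0.0927) with the smooth muscle score and -1.01 (SE 0.64, limma adjusted p = 0.423) with the array upper quartile as a covariate.

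N-cadherin (CDH2), the cadherin of neural and mesenchymal cells, was high in a minority of tumors. It exceeded 5 in 5 non-metastatic tumors (numbers 2, 3, 9, 12 and 14, at 8.38, 7.01, 7.74, 8.26 and 6.07) and in metastatic tumor 9 (6.29), while its median was 3.69 in non-metastatic and 2.80 in metastatic tumors. The 6 tumors were all among the 16 of grade III, and none of the 11 tumors of grade II exceeded 5. The difference between the lymph node groups was -1.72 (SE 0.65, 95% interval -3.05 to -0.39) and missed the threshold (limma adjusted p = 0.0577). It passed in 5 of the 27 analyses without 1 tumor, namely without non-metastatic tumor 6, 7, 8 or 11 or metastatic tumor 9, and among the probe sets above the median brightness (limma adjusted p = 0.041). A dimmer probe set of CDH2, with a mean of 2.32, differed by -0.07 and correlated at 0.387 with the one used.

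Over all tumors no relation between CDH1 and CDH2 passed the test (Pearson r = -0.32, adjusted permutation p = 0.156; Spearman rho = -0.05, adjusted permutation p = 0.817). Within the non-metastatic tumors r was -0.63 (adjusted permutation p = 0.037) and within the metastatic tumors 0.28 (adjusted permutation p = 0.509); the difference between the groups was not tested. Non-metastatic tumor 12 combined the lowest CDH1 with a CDH2 of 8.26, and tumors 2 and 9 of the same group had CDH1 at 5.68 and 5.43. Non-metastatic tumors 3 and 14, by contrast, had both cadherins, with CDH1 at 8.35 and 7.72.

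P-cadherin (CDH3), which normal mammary tissue has in basal and myoepithelial cells, was between 2.68 and 9.50 (median 4.73) in metastatic and between 2.08 and 7.57 (median 3.95) in non-metastatic tumors. The highest values were those of metastatic tumor 7, non-metastatic tumor 10 and metastatic tumor 11. The difference was 0.92 (95% interval -0.34 to 2.18, limma adjusted p = 0.272). A dimmer probe set of CDH3, with a mean of 3.19, was called lower by -0.36 (limma adjusted p = 0.00489) and correlated at -0.20 with the one used, so the probe sets of this gene disagree.

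OB-cadherin (CDH11), typical of fibroblasts and bone-forming cells, was above 10 in every tumor. Its range was 10.48 to 13.35 (median 11.74) in metastatic and 10.47 to 15.18 (median 11.98) in non-metastatic tumors, with the maximum in non-metastatic tumor 12, and the difference was -0.29 (95% interval -1.11 to 0.52, limma adjusted p = 0.600). CDH11 followed the collagen genes of fibroblasts across the tumors. With COL3A1 Pearson r was 0.62 (adjusted permutation p = 0.0034) and with COL1A2 0.60 (adjusted permutation p = 0.00504), with rho at 0.64 and 0.63 (adjusted permutation p = 0.0019 for both). Both held within the metastatic tumors (r = 0.76 and 0.71, adjusted permutation p = 0.0219 and 0.0229) and were 0.57 and 0.59 within the non-metastatic tumors (adjusted permutation p = 0.0815 for both). Without the 2 tumors farthest from the median of CDH11, r was 0.57 and 0.52.

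T-cadherin (CDH13), which is held in the membrane by a lipid anchor and lacks a tail for catenins, was between 4.94 and 9.64 (median 7.31) in metastatic and between 6.17 and 9.56 (median 8.45) in non-metastatic tumors. Metastatic tumors 13, 8, 4 and 5 were lower than any non-metastatic tumor, at 4.94, 5.26, 5.28 and 5.56. The difference of -1.13 (SE 0.46, 95% interval -2.09 to -0.18) missed the threshold (limma adjusted p = 0.0788) and passed without metastatic tumor 3 or 10 or non-metastatic tumor 12, and with array weights (limma adjusted p = 0.047). With the smooth muscle score in the model it was 0.0724 (limma adjusted p = 0.936). A dimmer probe set, which correlated at 0.79 with it, differed by -0.31. CDH16, the kidney-type cadherin, differed by -0.46 (95% interval -0.89 to -0.04, limma adjusted p = 0.103), with 10 of 13 metastatic tumors below the non-metastatic median, and passed without metastatic tumor 9. With the array upper quartile as a covariate it was 0.0048. The other probe sets of CDH16, at means of 2.48 and 1.97, differed by -0.04 and -0.02. They correlated at only 0.295 and 0.08 with the one used.

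Besides PCDH7, PCDH1 was the protocadherin measured above 5 in most tumors. It was between 5.51 and 6.97 (median 5.97) in metastatic and between 3.49 and 6.91 (median 5.89) in non-metastatic tumors, the minimum being that of non-metastatic tumor 12. The difference was 0.36 (95% interval -0.15 to 0.86, limma adjusted p = 0.291). A dimmer probe set of PCDH1, with a mean of 2.36, differed by -0.05 and correlated at -0.34 with the one used.

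Among the claudins, those of ordinary glandular epithelium, CLDN3, CLDN4 and CLDN7, varied together. CLDN3 was between 2.89 and 11.64 (median 8.18) in metastatic and between 2.37 and 9.07 (median 7.40) in non-metastatic tumors. Metastatic tumors 5, 8, 6 and 2 exceeded all non-metastatic tumors, whereas metastatic tumor 3 and non-metastatic tumors 12, 2 and 10 lay under 4. The difference of 1.79 (SE 0.82, 95% interval 0.11 to 3.48) missed the threshold (limma adjusted p = 0.110), and passed only without metastatic tumor 3 (adjusted p = 0.0337). With the array upper quartile as a covariate the CLDN3 difference was 0.0049 (SE 0.93, limma adjusted p = 0.999). It was 0.45 with tumor size and age as covariates and 0.65 with array weights.

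CLDN4 and CLDN7 showed smaller differences. CLDN4 was between 4.91 and 12.17 (median 9.79) in metastatic and between 4.496 and 11.72 (median 9.86) in non-metastatic tumors, a difference of 0.64 (95% interval -1.16 to 2.44, limma adjusted p = 0.604). CLDN7 was between 6.13 and 11.58 (median 10.47) in metastatic and between 4.73 and 11.60 (median 10.06) in non-metastatic tumors, a difference of 0.74 (95% interval -0.66 to 2.14, limma adjusted p = 0.432). The groups overlapped almost fully for both genes, and with the array upper quartile as a covariate the differences were -1.286 and -1.04.

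Across the tumors CLDN3 and CLDN4 correlated with r = 0.80 (rho = 0.74) and CLDN4 and CLDN7 with r = 0.87 (rho = 0.85), each with a permutation p of 1e-05, the smallest that 100000 permutations can give, and an adjusted p of 7.5e-05. The relation held within the metastatic tumors (r = 0.69 and 0.78, adjusted permutation p = 0.0229 and 0.0192) and the non-metastatic tumors (r = 0.94 for both). It was 0.75 and 0.92 without the 2 tumors farthest from the median, and 0.56 and 0.75 in the 23 tumors left when the 4 with CLDN3 under 4 were left out (adjusted permutation p = 0.0241 and 0.00045), a choice made after seeing the data. CLDN3 and CLDN4 are next to each other in the order of named genes of the dog genome assembly UU_Cfam_GSD_1.0, while CLDN7 is not their neighbour. For the other 14 pairs of adjacent members r over 27 tumors ran from -0.285 to 0.545, for example 0.22 for CDH1 and CDH3 and 0.29 for DSG2 and DSG3.

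**Figure D3:**
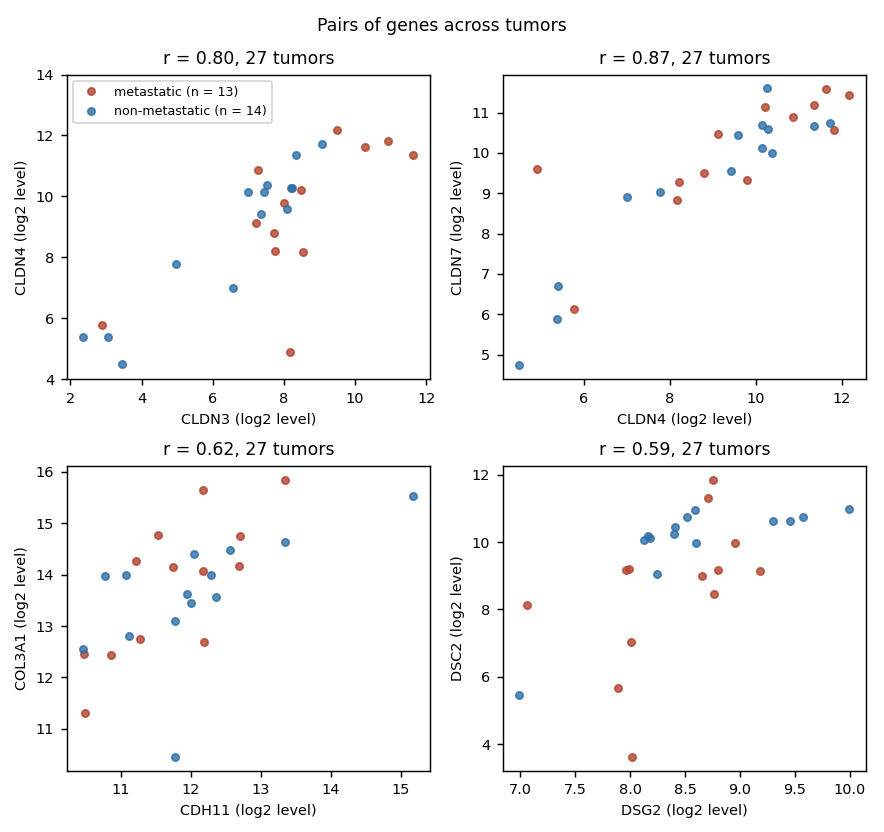
Log2 levels of 4 pairs of genes in 13 metastatic and 14 non-metastatic tumors, 1 point per tumor; both axes are log2 levels and each title gives Pearson r over 27 tumors. CLDN3, CLDN4 and CLDN7 were low together in 4 tumors (r = 0.80 and 0.87); CDH11 followed COL3A1 (r = 0.62) and DSG2 followed DSC2 (r = 0.59) with a wider scatter.

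The 4 tumors with CLDN3 under 4 (metastatic tumor 3 and non-metastatic tumors 2, 10 and 12) stood apart for CLDN7. It was between 4.73 and 6.69 there and between 8.83 and 11.60 in the other 23 tumors, without overlap. CLDN4 was between 4.496 and 5.77 in the 4 and between 4.91 and 12.17 (median 10.15) in the 23 tumors and overlapped, since metastatic tumor 12 had 4.91. These tumors were picked by their low CLDN3, so no test was made. CDH1 overlapped too, at 3.81 to 6.71 in the 4 and 4.72 to 9.20 in the 23 tumors, and DSC2 was within the range of the others, at 5.47 to 10.75. The mean of 6 luminal markers was 6.10 to 9.38 in the 4 and 8.21 to 12.67 in the 23 tumors, and the part of these markers in the claudin values was not tested.

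Non-metastatic tumor 10 had the lowest CLDN4 and CLDN7 of all tumors. Non-metastatic tumor 12 had the lowest CDH1, CLDN3, PCDH1 and DSG2 and the highest CDH11 of all tumors, the lowest mean of luminal markers (6.10) and the highest means of the T and NK cell (10.19) and macrophage (11.19) markers. Its mean of fibroblast markers, 12.57, was within the range of the other tumors. The part of these cells in its values was not tested. Without it, DSC2 was called lower in metastatic tumors (limma adjusted p = 0.0403).

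The remaining bright claudins were less alike. CLDN1, a claudin of skin and many other epithelia, was between 2.49 and 8.46 (median 4.57) in metastatic and between 2.20 and 6.35 (median 4.11) in non-metastatic tumors, a difference of 0.66 (95% interval -0.37 to 1.69, limma adjusted p = 0.335). It correlated with occludin (OCLN), another strand protein, at r = 0.48 (adjusted permutation p = 0.0229) and rho = 0.44 (adjusted permutation p = 0.0499), with r at 0.48 without the 2 farthest tumors, 0.37 within the metastatic and 0.53 within the non-metastatic tumors. CLDN8, a claudin that limits the passage of cations, was between 2.37 and 11.91 (median 8.09) in metastatic and between 2.55 and 10.49 (median 7.89) in non-metastatic tumors. It differed by 0.68 (95% interval -1.22 to 2.57, limma adjusted p = 0.603), and metastatic tumor 1 was under 5, as were non-metastatic tumors 1, 2, 8 and 10.

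CLDN10, a claudin that forms ion pores, was near the lower end of the scale in some tumors and high in others. It exceeded 5 in 3 of 13 metastatic tumors and in 8 of 14 non-metastatic tumors, and the highest value, 11.42, was that of metastatic tumor 10. The medians were 3.86 and 6.35, and the difference was -1.36 (95% interval -3.35 to 0.63, limma adjusted p = 0.301). Of its other probe sets, 1 correlated at 0.93 with it and differed by -0.31, and the other, at a mean of 2.94, was called lower by -0.38 (limma adjusted p = 0.0286) but correlated at 0.04.

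Of the desmosomal cadherins, DSG2 and DSC2 are the pair of simple and glandular epithelium. DSG2 was between 7.06 and 9.19 (median 8.65) in metastatic and between 6.99 and 9.99 (median 8.47) in non-metastatic tumors, a difference of -0.24 (95% interval -0.78 to 0.29, limma adjusted p = 0.495). DSC2 was between 3.63 and 11.85 (median 9.14) in metastatic and between 5.47 and 10.99 (median 10.34) in non-metastatic tumors. Metastatic tumors 12, 13 and 6 were low in DSC2, 11 of 13 metastatic tumors were below the non-metastatic median, and the difference of -1.42 (SE 0.69, 95% interval -2.84 to -0.01) missed the threshold (limma adjusted p = 0.130). With the smooth muscle score in the model it was 0.73 (limma adjusted p = 0.480). DSG2 and DSC2 correlated at r = 0.59 (adjusted permutation p = 0.00476) and rho = 0.58 (adjusted permutation p = 0.0054), with r at 0.49 without the 2 farthest tumors, 0.49 within the metastatic (adjusted permutation p = 0.147) and 0.75 within the non-metastatic tumors (adjusted permutation p = 0.0016). With the mean of all probe sets of each gene r was 0.37 (adjusted permutation p = 0.102).

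DSG3, DSG1 and DSC1 are desmosomal cadherins of stratified epithelium, DSG3 of its basal layers and the others of its upper layers. DSG3 was between 3.05 and 12.82 (median 8.38) in metastatic and between 5.73 and 11.01 (median 8.27) in non-metastatic tumors. It was under 5 in metastatic tumors 3, 4, 6 and 12 and in no non-metastatic tumor, and the SD was 3.21 in the former and 1.52 in the latter group. The mean difference was -0.63 (95% interval -2.56 to 1.29, limma adjusted p = 0.633). DSG1 differed by 0.01 (95% interval -0.98 to 1.00, limma adjusted p = 0.990) and DSC1, which stayed under 3 in all tumors, by -0.08 (95% interval -0.18 to 0.02, limma adjusted p = 0.222).

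**Figure D4:**
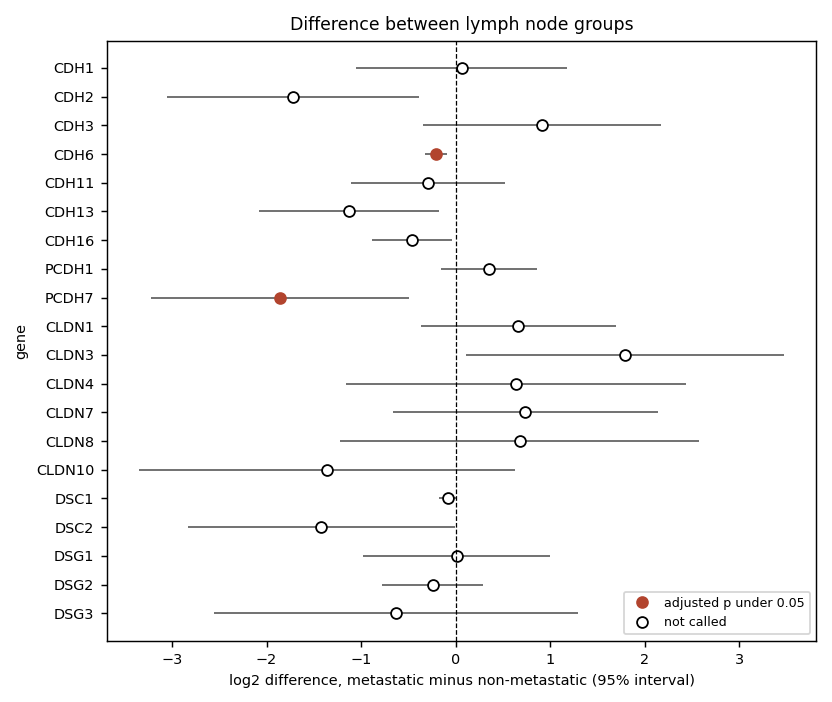
Difference in log2 level, metastatic minus non-metastatic, of 20 members (points) with 95% intervals (lines); filled points passed an adjusted p under 0.05 and open points did not. The called genes are PCDH7 at -1.86 and CDH6 at -0.21; for the open points the adjusted p was 0.0577 (CDH2) or more, also where the interval excludes 0.

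Of the members, 7 were measured above 5 in only 1 or 2 tumors. DSG1 reached 7.95 in metastatic tumor 7 and 6.58 in non-metastatic tumor 13, with a median of 2.67 over all tumors. Metastatic tumor 7 also had the highest DSG3, CDH3 and CLDN1 and, at 6.62, the highest mean of 5 markers of keratinizing epithelium or skin, against 4.51 in the next tumor. Within the metastatic tumors DSG1 correlated with the keratin KRT10 at r = 0.97 (adjusted permutation p = 0.0229), where this was the only tumor with DSG1 over 5, while over all tumors r was 0.35 and without the 2 farthest tumors 0.28 (adjusted permutation p = 0.141 over all tumors). In non-metastatic tumor 13, DSG1 came with CLDN17 at 8.31 (median 2.29). CDH7 was 8.53 in non-metastatic tumor 8 and 5.76 in metastatic tumor 5, against a median of 2.64. CLDN12 was 7.78 in metastatic tumor 12, which had the lowest DSC2, and CLDN20 was 6.71 in metastatic tumor 8 and 5.04 in metastatic tumor 11. CDH19 was 5.13 in metastatic tumor 9 and PCDH20 5.45 in non-metastatic tumor 10.

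Other proteins of the junctions were read in the same test. In all, 5 of 44 measured partners were called (11.4%), and 19.0% of the tight junction partners, against 19.2% of all genes, so these shares are no result about the partners. Of 16 adherens junction partners 1 was higher in metastatic tumors, NECTIN2, a nectin that adheres beside the cadherins, at 6.29 ± 1.32 (SD, n = 13) against 4.82 ± 1.05 (SD, n = 14), a difference of 1.47 (limma adjusted p = 0.023). The catenins CTNNA1, CTNNB1 and CTNND1 differed by 0.0007, 0.12 and -0.42 and were not called. Of 8 partners of the desmosomal cadherins none was called by limma, and 2 had an unadjusted p under 0.05, periplakin (PPL) at -1.10 (adjusted p = 0.078) and PKP2 at 1.27 (adjusted p = 0.100).

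Of 21 tight junction partners 4 were called. PRKCZ, the atypical protein kinase C of the polarity complex, fell by 1.26 (limma adjusted p = 0.000513), from 10.40 ± 0.65 (SD, n = 14) in non-metastatic to 9.14 ± 0.48 (SD, n = 13) in metastatic tumors, and all 13 metastatic tumors were below the non-metastatic median. The scaffolds MPDZ and PATJ were lower by -1.08 (limma adjusted p = 0.0256) and -1.07 (limma adjusted p = 0.0391). PRKCZ, MPDZ and PATJ have 5, 5 and 7 probe sets, and these values are from the one of highest mean. MARVELD2, or tricellulin, the protein of the corners where cells meet, was higher by 0.89 (limma adjusted p = 0.0227), at 3.27 ± 0.90 (SD, n = 13) against 2.39 ± 0.48 (SD, n = 14). It was dim, with a highest value of 4.82. With tumor size and age as covariates, 1 of all the partners was called, against 2.79% of all genes. The median difference was 0.003, -0.01 and -0.02 for the adherens junction, desmosome and tight junction partners.

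No catenin passed with CDH1 by both Pearson r and Spearman rho across the tumors. CTNND1, p120 catenin, correlated with CDH1 at r = 0.49 (adjusted permutation p = 0.0229) and rho = 0.37 (adjusted permutation p = 0.116). Without the 2 tumors farthest from the median of CDH1, r was only 0.21. It was 0.50 within the metastatic (adjusted permutation p = 0.147) and 0.52 within the non-metastatic tumors (adjusted permutation p = 0.0815). CTNNA1 had r = 0.27 (adjusted permutation p = 0.218). For CTNNB1, beta-catenin, r was -0.30 over all tumors (adjusted permutation p = 0.184), -0.77 within the non-metastatic (adjusted permutation p = 0.0042) and 0.22 within the metastatic tumors (adjusted permutation p = 0.531), and -0.06 without the 2 tumors farthest from the median of CDH1. CDH3 and TP63, the transcription factor of basal cells, correlated at 0.44 (adjusted permutation p = 0.051), with rho at 0.11. DSG1 and DSC1 had r of -0.004 but rho of 0.54 (adjusted permutation p = 0.0094), most values of both being near the lower end of the scale. In all, 15 pairs were tested, and 7 passed by Pearson r.

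Histologic grade gave no calls by limma, as 0% of all genes passed for grade III against grade II with the lymph node group in the model. An unadjusted p under 0.05 was found for 6 of 51 members, against 5.85% of all genes. CLDN4 was -1.91 (SE 0.83), CLDN7 -1.53 (SE 0.64) and CDH2 1.39 (SE 0.62) in grade III relative to grade II (limma adjusted p = 0.781 for each), and the others, CDH22, CDH24 and CDH9, differed by less than 0.1. CLDN7 averaged 10.43 ± 0.95 (SD, n = 5) and 8.61 ± 2.25 (SD, n = 9) in grades II and III of the non-metastatic and 10.66 ± 0.79 (SD, n = 6) and 9.43 ± 1.74 (SD, n = 7) of the metastatic tumors.

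The lymph node difference itself was compared between grade III and grade II, and again 0% of all genes passed. No member had an unadjusted p under 0.05 in this limma interaction, against 2.66% of all genes. For 11 metastatic tumors the labels give survival in months, from 1 to 9 months. The slope of expression on survival passed for 0% of all genes, and an unadjusted p under 0.05 was found for 2 members, CDH16 at 0.12 and PCDH20 at -0.02 log2 units per month (limma adjusted p = 1.00 for both), against 1.75% of all genes.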

How the data were processed

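RNA from 27 frozen, macrodissected carcinomas was hybridized by the authors to 1 array each. The deposited values are log2 signals that the authors made in Partek Genomic Suite 6.4 by gcRMA (background correction, quantile normalization, median polish). All 43035 probe sets were read and 175 control probe sets left out. The probe annotation gave 29254 tested probe sets 1 symbol, 439 several and 13167 none. PCDHGC3 and DSC3 had no probe set under a single symbol and were not analysed here. All 51 members were found in RefSeq, 46 by gene ID and 5 by symbol only. They have 73 probe sets, and 14 members have more than 1.

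Tumors were grouped by the lymph node label. Differences were tested with limma 3.58.1 (lmFit, eBayes; R 4.3.3) and Benjamini-Hochberg adjustment over 42860 probe sets, calls being an adjusted p under 0.05. The methods used ANOVA with q-values, tried here as an alternative with Benjamini-Hochberg adjustment. The grade and interaction models included the lymph node group. Correlations (Python 3.11.15) used 100000 two-sided permutations, adjusted over 15 pairs, and over the same pairs within each group. The script was tested on simulated data. Grade came from the labels; that of non-metastatic tumor 1 differs in the study's table of dogs, and an alternative used the latter. Pairwise correlations of arrays ran from 0.911 to 0.993, so no array was a copy of another. The limma p-values set a difference or slope against the spread between dogs. The permutation p-values test the relation of 1 gene to another across dogs. Precision is limited by how many arrays there are. Named genes were all called members, a fixed list of 16 well-known members where measured, the 8 of largest SD, and the called partners. Members named for 1 or 2 high tumors, CDH16, PCDH1 and the unadjusted grade and survival members were chosen after their values were seen. Members and lists were chosen with earlier results of these data known. Luminal, basal, squamous, fibroblast, endothelial, adipocyte, T and NK cell, macrophage, nerve and skeletal muscle marker lists were read from the same fit.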

Additional observations from a re-analysis of the deposited data

How the results depend on the processing

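The 2 calls among the members were sensitive to the model. Of 257 differences of 20 named members under other settings, 206 kept direction and side of the threshold, 14 lost and 4 gained a call, and 33 changed sign, all of which were uncalled. The number called was 1 with the values quantile-normalized again (PCDH7), against 13.2% of all genes. It was 1 with each array centred on its median (CDH6), against 16.3% of all genes. It was 1 with adjustment over 1 probe set per gene (CDH6), against 17.8%, and with grade as a covariate (CDH6), against 18%. It was 0 with the array upper quartile added to the model, against 5.28% of all genes. It was 0 with the mean of all probe sets of a gene, against 18.3%. It was 0 with tumor size and age as covariates, against 2.79%, and with the name ending as a block, against 0.0728%. The block leaves metastatic tumors 1 and 2 against the 14 others. The number called was 4 without non-metastatic tumors 4 and 12 (CDH13, CDH6, DSC2 and PCDH7), against 21.7% of all genes. The study's clustering of these same data placed 2 non-metastatic tumors with the metastatic tumors, and 1 of them was tumor 12. In grade, size and age the other matches tumors 4 and 8. Leaving out tumors so placed can widen the group difference, and the gain in calls is no separate evidence. The number called was 3 by the ANOVA of the methods (CDH12, CDH6 and PCDH7), against 19.7% of all genes. It was 3 with array weights (CDH13, CDH6 and PCDH7), against 19.5%. Among the probe sets above the median brightness it was 2 of 18 members (CDH2 and PCDH7), against 26.1% of the genes there. With the smooth muscle score it was 2, but of other members (CDH15 and CLDN18), against 6.52% of all genes. All of these were lower in metastatic tumors. Leaving out each tumor in turn gave 1 to 4 calls, 1 to 4 of them lower and 0 to 1 higher. It gave 0 past an adjusted p under 0.001 and a fold change over 1.7. Among all genes 15.4% to 20.8% were then called. CDH6 was called each time, 8 other members at least once, CLDN24 without non-metastatic tumor 6, 11 or 13 and CLDN18 without 6 or 11 among them. PCDH7 was -1.19 with size and age and -0.21 with the smooth muscle score. No paired analysis was possible because the tumors come from different dogs and their numbers pair nothing.

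Signs turned as follows. With the upper quartile as a covariate CDH1 was -1.01, CDH16 0.0048, CLDN1 -0.11, CLDN4 -1.286, CLDN7 -1.04, CLDN8 -1.33 and DSC1 0.0462. With array weights CDH1 was -0.45, CLDN4 -0.42, CLDN7 -0.20 and CLDN8 -0.24. With size and age CDH1 was -0.10, CLDN4 -0.13, CLDN7 -0.26, CLDN8 -0.10 and DSG1 -0.60. With the smooth muscle score CDH13 was 0.0724, DSC2 0.73, DSG1 -0.0016, DSG2 0.18 and DSG3 0.72. With the ending of the name as a block CDH1 was -0.38, CDH3 -0.42, CDH11 0.23, CLDN8 -1.925, DSG1 -0.43, DSG3 1.201 and PCDH1 -0.0675. CDH1 was -0.0737 after quantile normalization, -0.0348 with grade and -0.21 without non-metastatic tumors 4 and 12, where DSG1 was -0.0525. DSG2 was 0.0822 as the mean of its probe sets. Without 1 tumor each, CDH1 ran from -0.19 to 0.27 and DSG1 from -0.40 to 0.29. The correlation of DSG1 and DSC1 was 0.43 without the 2 farthest tumors. The cause of these changes was not tested.

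Of the junction partners, 5 were called (2 higher, 3 lower). With size and age 1 was called, 0 higher and 1 lower, against 2.79% of all genes. With the name ending as a block 0 were called in either direction, against 0.0728% of all genes. With the mean of all probe sets 1 was higher. The grade, interaction and survival models gave 0 calls under every alternative run.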
